A study of Arabidopsis thaliana with 4 samples.

Results

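Seedlings that overexpress the CCCH zinc finger gene C3H17 (C3H17_OX) were compared directly with atc3h17-1 seedlings, which the labels name as a mutant of that gene. The comparison takes 3 of the 4 arrays of the series: 2 of C3H17_OX and 1 of atc3h17-1. The remaining array, of wild type (WT), is left out of the comparison, and its levels are printed only as context. All plants were Arabidopsis thaliana of the Col-0 ecotype, untreated, harvested as whole seedlings 14 days after germination and grown on agar plates in short days (8 h light, 16 h dark). The promoter of the overexpression construct, the number of lines behind it and the kind of lesion in atc3h17-1 are not given in the sources used here.

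C3H17 belongs to the plant CCCH zinc finger proteins, a family that includes RNA-binding proteins and transcription factors. It has been described as a nuclear transcriptional activator with roles in vegetative growth, flowering and seed development. Whole-seedling RNA holds roots and shoots together.

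The 3 probes of C3H17 (locus AT2G02160) checked the genotype labels. Levels are given in units in which the 75th percentile of each array is 1000. Probe A_84_P803253 read 2258 and 2279 on the C3H17_OX arrays, against 2.63 in atc3h17-1, where it was not well above background, and was at least 195-fold higher in C3H17_OX. Probe A_84_P221496 read 5631 and 5818 in C3H17_OX, against 2.99 in atc3h17-1, again not well above background, and was at least 492.5-fold higher. The WT array read 496 with A_84_P803253 and 5833 with A_84_P221496, so by the brighter probe C3H17_OX and WT gave nearly the same level. Probe A_84_P847169 read 210 and 208 in C3H17_OX, against 52.5 in atc3h17-1, a 3.97-fold difference, and was well above background on every array, WT included at 37.2. Each probe thus read higher in C3H17_OX, but with this dimmest probe atc3h17-1 was not at background, so the gene's transcript cannot be called absent there.

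Each array held 43803 non-control spots of 43603 probes, none saturated, and 72.8% to 74.5% of the spots on the 3 compared arrays were well above background. Between both C3H17_OX arrays the median gene differed by 0.0294 (log2), below the 0.0596 and 0.0481 found for repeated spots of 1 probe on either array. Where a gene had several probes, the differences within this pair were unrelated from probe to probe (r = -0.00038 across 5822 genes, which are not independent replicates), whereas those against atc3h17-1 were related (r = 0.615 and 0.651). They were therefore counted as 1 sample. With 1 sample of each genotype the differences have no replicate check, no p-value is given, and precision is limited by the number of arrays. On spots printed repeatedly, values varied more on the WT array (SD 0.219) than on the compared arrays (SD 0.0844 to 0.103), so WT levels are the least precise.

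Of 19489 genes with a probe well above background on all 3 arrays, 431 (2.21%) differed at least 2-fold from atc3h17-1 in 1 direction on each C3H17_OX array. These are named higher or lower below. Higher genes in C3H17_OX numbered 334 (1.71% of the genes measured) and lower genes 97 (0.498%). The median difference over all genes was -0.01 on the log2 scale. Beyond 4-fold lay 22 higher and 13 lower genes. Calls were concentrated among dim genes: 5.62% of the genes in the lowest quartile of level were called, against 0.39% in the highest quartile. Of the 334 higher genes, WT lay nearer to C3H17_OX for 220 and nearer to atc3h17-1 for 114. For the 97 lower genes these numbers were 40 and 57. Of the genes named below, RHD6, LRX2, PERK13, RHS12, RHS18, RHD2, RHS8, AMT1;2, AMT1;3, FRU, COR15A, THI2.1, AGL42, GSTU22, RR17, LEC1 and THA1 did not reach 2-fold with normexp background correction, which adds an offset to each signal and so shrinks differences of dim genes.

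**Figure D1:**
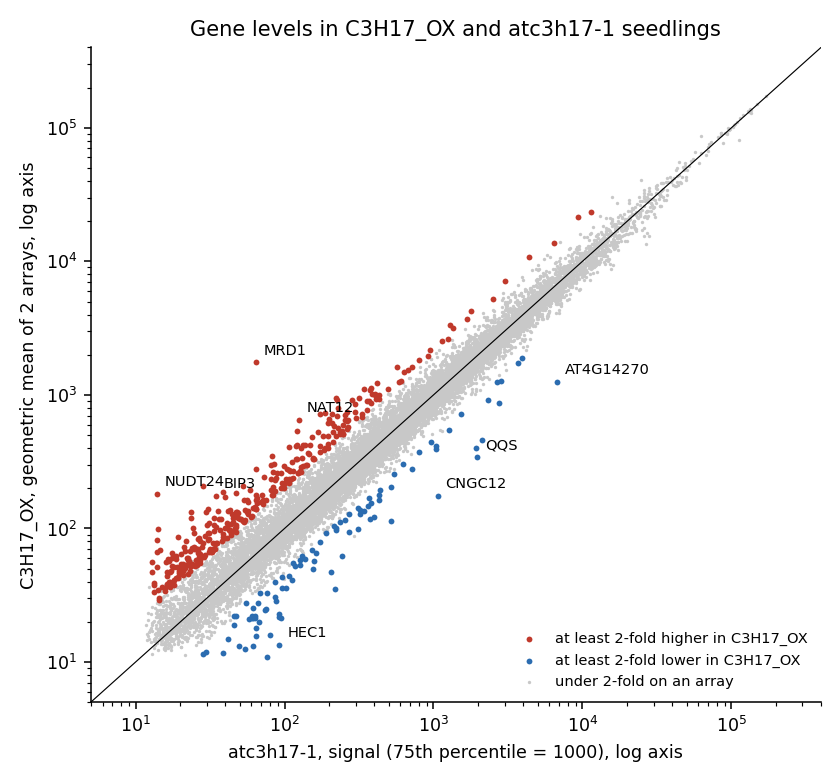
Each point is 1 of 19489 genes, with its level in atc3h17-1 on the horizontal axis and the geometric mean of the 2 C3H17_OX arrays on the vertical axis, both log axes in units with each array's 75th percentile at 1000. The 334 higher genes (red) and 97 lower genes (blue) lie mostly at the dim end, and MRD1 stands furthest above the line of equal levels.

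Genes of root hairs were higher in C3H17_OX. Root hairs are tubular outgrowths of single root epidermal cells, set up by bHLH transcription factors and built with expansins and other wall proteins. Of 20 listed root hair genes 19 were measured, 11 were higher and 1 was lower in C3H17_OX, where 1.71% of all genes were higher. The list's median difference was 1.07 on the log2 scale, beside -0.01 over all genes.

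Among the transcription factors, RSL2, a bHLH factor that drives hair growth, read 185 and 183 in C3H17_OX, against 47.5 in atc3h17-1 (3.87-fold higher, WT 187). RHD6, the bHLH factor that starts hair formation, read 50.9 and 51.2 in C3H17_OX, against 19.01 in atc3h17-1 (2.69-fold higher, WT 60.5). For both factors the C3H17_OX arrays lay together well above atc3h17-1, and WT lay with C3H17_OX. RSL4, a related factor that acts later in the same cells, did not reach 2-fold.

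Among the wall proteins, the expansin gene EXPA7 read 171 and 111 in C3H17_OX, against 42.9 in atc3h17-1, a 3.21-fold difference. The expansin gene EXPA18 read 160 and 158 in C3H17_OX, against 56.7 in atc3h17-1, a 2.80-fold difference. PRP3, a proline-rich wall protein gene, read 233 and 238 in C3H17_OX, against 81.3 in atc3h17-1, a 2.89-fold difference. In each case both C3H17_OX arrays exceeded atc3h17-1 and WT was higher still, at 219.5, 249 and 536, while EXPA7 was the member on which the C3H17_OX arrays differed most from each other.

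SHV2, also known as COBL9, a membrane-anchored protein gene needed for hair growth, read 231 and 230 in C3H17_OX, against 86.6 in atc3h17-1 (2.66-fold higher). RHD2, the NADPH oxidase gene of hair tips, read 152 and 151 in C3H17_OX, against 72.0 in atc3h17-1 (2.103-fold higher), and WT lay nearer to atc3h17-1 at 93.2. RHS19 read 254 and 267.5 in C3H17_OX, against 89.4 in atc3h17-1 (2.92-fold higher). PERK13, RHS12 and RHS18 were higher as well, by 2.095-fold to 2.66-fold. WT lay nearer to C3H17_OX for 10 of the 11 higher members.

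The exception in direction was LRX2, a leucine-rich repeat extensin gene of root hairs, which read 32.3 and 33.4 in C3H17_OX, against 68.7 in atc3h17-1 (2.09-fold lower). With normexp background correction 6 members of the list were higher in place of 11.

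A further set of root hair specific genes, chosen after values of these data were seen, had 11 of 14 members measured and 9 higher, 4 of them also in the list above, with none lower and a median difference of 1.34 on the log2 scale. RHS16 read 111 and 108 in C3H17_OX, against 31.0 in atc3h17-1, a 3.53-fold difference. RHS8 read 62.4 and 58.9 in C3H17_OX, against 17.56 in atc3h17-1, a 3.45-fold difference. G3Pp2, a gene for a glycerol-3-phosphate permease, read 107 and 104 in C3H17_OX, against 33.7 in atc3h17-1, a 3.13-fold difference. Both C3H17_OX arrays lay well above atc3h17-1 for these 3 genes, and WT exceeded C3H17_OX for each of them.

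Genes of the Casparian strip, the lignin band of the root endodermis that seals the space between cells, were higher in part. Of 12 listed genes 10 were measured and 4 were higher, beside 1.71% of all genes. None was lower, and the median difference was 0.53 on the log2 scale. CASP1, a membrane protein gene that marks where the strip forms, read 925 and 918.5 in C3H17_OX, against 283 in atc3h17-1 (3.26-fold higher). PER64, a peroxidase gene of strip lignin, read 426 and 424 in C3H17_OX, against 137 in atc3h17-1 (3.099-fold higher). ESB1, a dirigent-like protein gene needed for an unbroken strip, read 530 and 537 in C3H17_OX, against 244 in atc3h17-1 (2.18-fold higher). For CASP1, PER64 and ESB1 the C3H17_OX arrays agreed closely, and WT was higher than C3H17_OX.

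CASP2 did not reach the threshold at 208.5 and 204 in C3H17_OX, against 111 in atc3h17-1. CASP4 and CASP5 were well above background in C3H17_OX but not in atc3h17-1, by bounds of at least 2.36-fold and 2.78-fold, and WT read above C3H17_OX for both, at 42.9 and 42.1. Of the regulators, MYB36, a transcription factor for strip genes, did not reach 2-fold, and SHR read 463 and 473 in C3H17_OX, against 575 in atc3h17-1.

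Suberin, the waxy layer laid down in older endodermis, had 11 measured genes and no call. Differences were above 0 for 10 of the 11, where 48.5% of all genes lay above 0, and their median was 0.56 (log2). The largest was ABCG6, an exporter gene for suberin precursors, with 646 and 647 in C3H17_OX, against 335 in atc3h17-1.

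In bulk seedling RNA fewer cells of a type and less RNA per cell cannot be told apart. The 15 root markers summed to 2171 and 2092 in C3H17_OX and 828 in atc3h17-1 (WT 3289). Most of them also belong to the root hair or Casparian strip lists above, so the sum is not a separate reading. Of the 10 root markers measured, 6 were higher and none lower, and all 6 are calls already counted in those lists. PLT2 and IRT1 were not well above background on the 3 arrays. PLT1 went the other way: it was well above background in atc3h17-1 but not in C3H17_OX, at least 3.31-fold lower in C3H17_OX. The 8 shoot markers summed to 564900 and 560200 in C3H17_OX and 535500 in atc3h17-1, with no member called. The part of this shift in root markers in the results given here was not tested.

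**Figure D2:**
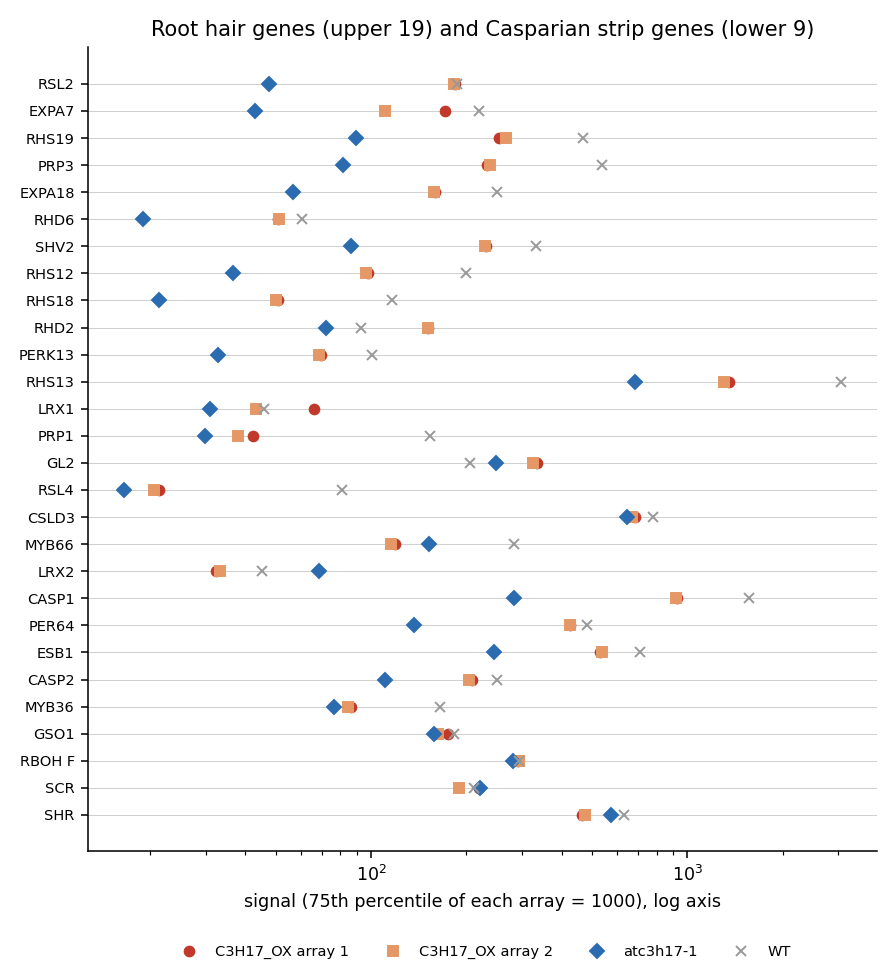
Level of 19 root hair and 9 Casparian strip genes on each array, on a log axis in units with each array's 75th percentile at 1000, with both C3H17_OX arrays, atc3h17-1 and WT as separate marks. For most root hair genes and for CASP1, PER64 and ESB1 the atc3h17-1 mark lies left of the C3H17_OX marks. For LRX2, MYB66, SCR and SHR it lies to the right.

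TIP2;3, a vacuolar aquaporin gene, was the single called member of 20 aquaporin genes, with 429 and 410 in C3H17_OX, against 134 in atc3h17-1 (3.13-fold higher). The share higher was 1.71% over all genes. AIR1, an auxin-induced gene first found in root cultures, read 277 and 283 in C3H17_OX, against 64.8 in atc3h17-1 (4.32-fold higher by both its probes). WT lay above atc3h17-1 for both genes, at 523 and 518.

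Arabinogalactan proteins, heavily glycosylated wall proteins, gave 5 higher and no lower genes among 28 measured, in a family picked after values were seen. The share higher over all genes was 1.71%. AGP30, studied in roots, read 86.9 and 87.0 in C3H17_OX, against 19.4 in atc3h17-1 (4.48-fold higher, WT 436). AGP3 read 1093 and 1084 in C3H17_OX, against 375.5 in atc3h17-1 (2.90-fold higher, WT 2312). WT lay nearer to C3H17_OX for all 5 called members and exceeded C3H17_OX for both genes given here.

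Nutrient uptake genes were called in small numbers, where 1.71% of all genes were higher. SULTR1;1, a high-affinity sulphate transporter gene of roots, read 132 and 134 in C3H17_OX, against 29.6 in atc3h17-1 (4.50-fold higher), and WT matched atc3h17-1 at 28.7. It was the single call among 14 sulphur-response genes, of which 13 lay above 0 (median 0.47 on the log2 scale), beside 48.5% of all genes. BGLU28, a beta-glucosidase gene induced when sulphur is short, read 11000 and 11250 in C3H17_OX, against 5738 in atc3h17-1, just under 2-fold.

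The ammonium transporter genes AMT1;2 and AMT1;3 were higher by 2.07-fold and 2.16-fold, the only calls among 14 nitrogen genes. Of all genes measured 1.71% were higher. For AMT1;2 WT lay under both genotypes at 450. NRT2.5, a nitrate transporter gene, went the other way and just missed a call, at 52.3 and 53.8 in C3H17_OX, against 108 in atc3h17-1. FRU, also called FIT, the bHLH regulator of iron uptake, was 2.33-fold higher at 138 and 148 in C3H17_OX, against 61.6 in atc3h17-1. It was the only call among 14 iron genes, of which 7 lay above 0 and 7 below (median -0.04 on the log2 scale). No phosphate gene was called, and 15 of 16 lay above 0 (median 0.22 on the log2 scale), beside 48.5% of all genes.

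Genes of the low-oxygen response were higher in part. Under low oxygen plants ferment pyruvate to ethanol and draw on sucrose synthase. Of 12 measured genes 4 were higher and none lower, where 1.71% of all genes were higher, and the median log2 difference was 0.77. ADH1, alcohol dehydrogenase, read 851 and 854 in C3H17_OX, against 296 in atc3h17-1 (2.88-fold higher over 3 probes). AT4G33070, pyruvate decarboxylase 1, read 355 and 344 in C3H17_OX, against 82.2 in atc3h17-1 (4.25-fold higher). SUS4, a sucrose synthase gene, read 998 and 1002 in C3H17_OX, against 434 in atc3h17-1 (2.31-fold higher).

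The enzymes of both steps of ethanol fermentation were thus among the higher genes, and WT lay between the genotypes for ADH1 and AT4G33070, at 486 and 129.5, but under both for SUS4, at 382. The locus AT5G10040 was also higher, at 88.9 and 75 in C3H17_OX, against 14.0 in atc3h17-1 (5.84-fold higher). LBD41 and AT5G15120, plant cysteine oxidase 1, were each under 2-fold, at 1.73-fold.

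Glutathione S-transferases, which conjugate glutathione to reactive or toxic compounds, gave 4 higher and no lower genes among 23 measured. Over all genes 1.71% were higher. A wider set of the family, picked after values were seen, had 6 higher and none lower among 38 measured, with 13 below 0. Its median log2 difference was 0.33, beside 0.53 for the list. GSTU3 read 98.9 and 104 in C3H17_OX, against 24.4 in atc3h17-1 (4.15-fold higher, WT 2.54). GSTU4, its neighbour, read 1126 and 1115 in C3H17_OX, against 378 in atc3h17-1 (2.96-fold higher, WT 40.5). GSTU22 and GSTF7 were 2.26-fold and 2.12-fold higher. For GSTU3 and GSTU4 both C3H17_OX and atc3h17-1 exceeded WT, with C3H17_OX the highest. GSTU20, which takes part in aliphatic glucosinolate synthesis, went the other way without a call, with 13480 and 13610 in C3H17_OX, against 26880 in atc3h17-1.

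The list of jasmonate and ethylene defence genes had 2 higher and no lower genes among 26 measured, where 1.71% of all genes were higher. VSP2, a vegetative storage protein gene that marks jasmonate response, read 3417 and 3317 in C3H17_OX, against 1284 in atc3h17-1 (2.62-fold higher, WT 389). THI2.1, a thionin gene, read 49.9 and 93.4 in C3H17_OX, against 23.2 in atc3h17-1, and its C3H17_OX arrays differed from each other by nearly the size of the gap to atc3h17-1. limma did not call it. Among 21 salicylate genes PCC1 was the single call, at 716 and 719 in C3H17_OX, against 332 in atc3h17-1 (2.16-fold higher).

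PAD3, the last enzyme of camalexin synthesis, read 419 and 420 in C3H17_OX, against 122 in atc3h17-1 (3.44-fold higher). It was called alone among 13 indole glucosinolate and camalexin genes, where 1.71% of all genes were higher. For VSP2, PCC1 and PAD3 the order of the 3 genotypes was C3H17_OX, then atc3h17-1, then WT, the last at 389, 14.3 and 52.6.

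Abscisic acid and dehydration genes lay mostly above 0, by less than 2-fold. Of 31 measured 2 were higher and none lower, beside 1.71% and 0.498% of all genes. However, 28 of 31 lay above 0, beside 48.5% of all genes, and the median log2 difference was 0.39. RAB18, a dehydrin gene, read 1120 and 1098 in C3H17_OX, against 493 in atc3h17-1 (2.25-fold higher over 4 probes). COR15A, a cold-regulated chloroplast protein gene, was 2.21-fold higher. NCED3, the rate-limiting step of abscisic acid synthesis, read 126 and 123 in C3H17_OX, against 62.8 in atc3h17-1, just under the threshold.

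Flowering genes are of interest because of the role described for C3H17. AGL42, a MADS-box gene related to SOC1, was the single call among 20 flowering promoters, at 109 and 103 in C3H17_OX, against 47.6 in atc3h17-1 (2.22-fold higher). Among all genes 1.71% were higher. AGL20, the gene SOC1, read 3737 and 3843 in C3H17_OX, against 2237 in atc3h17-1 (1.69-fold). FLC, the repressor of SOC1, read 127 and 128 in C3H17_OX, against 218 in atc3h17-1 (1.71-fold). Neither SOC1 nor FLC reached 2-fold. Of the promoters 17 of 20 lay above 0 with a median of 0.15, beside 48.5% of all genes. None of 17 repressors was called, and 6 lay above 0 and 11 below, with a median of -0.11. Among those above 0 was CDF1, at 1234 and 1176 in C3H17_OX, against 757 in atc3h17-1.

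**Figure D3:**
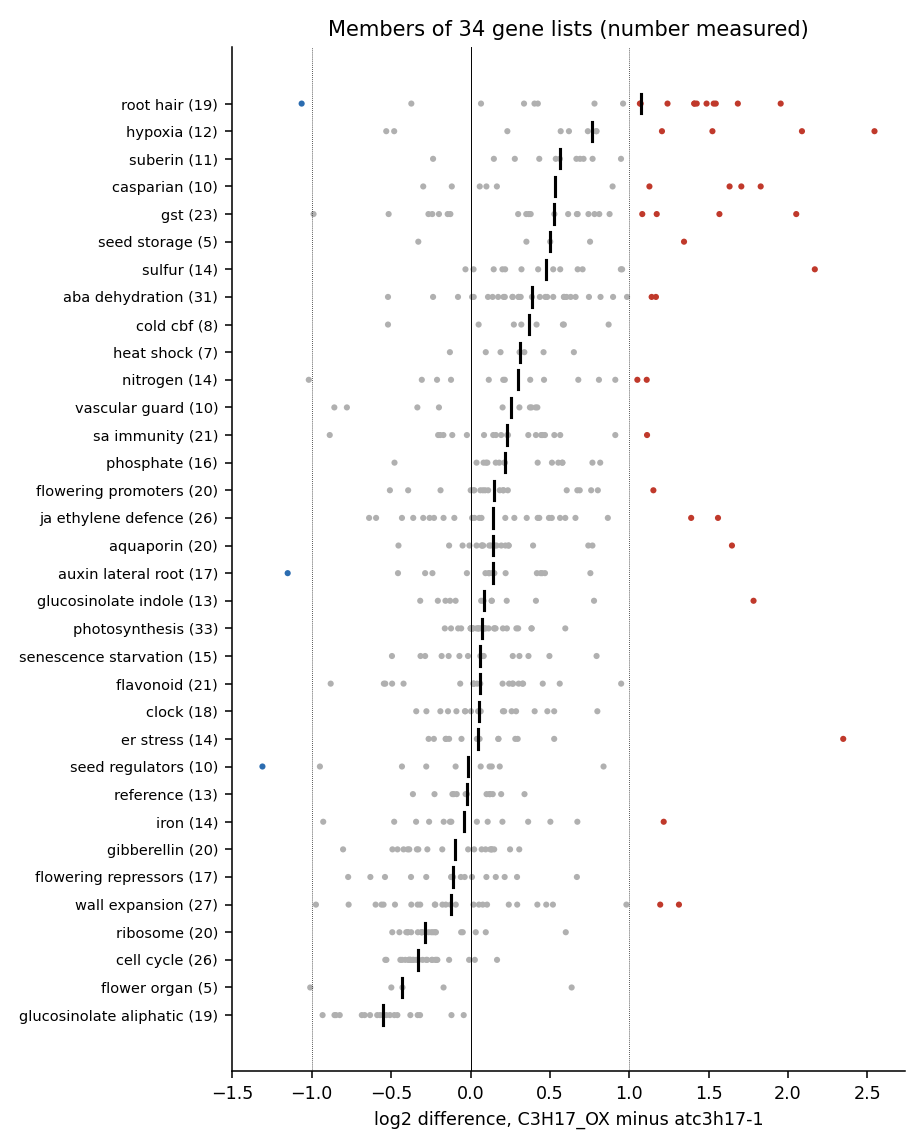
Log2 difference, C3H17_OX minus atc3h17-1, of each measured member of 34 gene lists, ordered by the list's median (black bar), with members called higher in red and lower in blue and dotted lines at 2-fold. Root hair and hypoxia lists lie highest and aliphatic glucosinolate genes lowest.

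The genes with the largest differences were mostly outside these lists. MRD1, named for its lower level in a methionine over-accumulating mutant, read 1721 and 1783 in C3H17_OX, against 64.0 in atc3h17-1 (27.4-fold higher, WT 48.0). NUDT24, a nudix hydrolase gene, read 187 and 174 in C3H17_OX, against 13.8 in atc3h17-1 (13.1-fold higher, WT not well above background). NAT12, a nucleobase-ascorbate transporter gene, read 652 and 655.5 in C3H17_OX, against 125 in atc3h17-1 (5.22-fold higher, WT 70.9). In these 3 genes C3H17_OX stood apart from both other genotypes.

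BIP3, which encodes an endoplasmic reticulum chaperone that is induced when unfolded proteins build up, read 170 and 184 in C3H17_OX, against 34.7 in atc3h17-1 (5.09-fold higher by both its probes). ICL, the glyoxylate cycle enzyme isocitrate lyase used for seed lipid reserves, read 188 and 188 in C3H17_OX, against 38.8 in atc3h17-1 (4.84-fold higher by both probes). LEA7, a late embryogenesis abundant protein gene, read 132 and 136 in C3H17_OX, against 23.62 in atc3h17-1 (5.67-fold higher). BIP3 was the single call among 14 endoplasmic reticulum genes, whose median was 0.05, where 1.71% of all genes were higher.

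The other genes among the 12 highest were the unnamed loci AT3G09080, AT3G29970, AT3G14870 and AT5G24880, at 4.73-fold to 7.29-fold. Of the genes with all probes past 2-fold, ESP, the epithiospecifier protein that directs glucosinolate breakdown, read 948.5 and 960 in C3H17_OX, against 317 in atc3h17-1 (3.01-fold higher). FTM1, a stearoyl desaturase gene expressed in the meristem at floral transition, read 702 and 678 in C3H17_OX, against 226 in atc3h17-1 (3.06-fold higher). AT1G12805 and AT2G17850 were 3.84-fold and 3.79-fold higher.

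Lower genes began with the cluster of cyclic nucleotide-gated channels, a family picked after values were seen. Of its 16 measured members 3 were lower and 1 was higher, beside 0.498% and 1.71% of all genes. The median log2 difference was 0.05. CNGC12, a plasma membrane cation channel gene, read 173 and 177 in C3H17_OX, against 1067 in atc3h17-1 (6.09-fold lower), with WT close to atc3h17-1 at 1073. Its neighbour CNGC11 read 55.7 and 22.3 in C3H17_OX, against 219 in atc3h17-1 (6.21-fold lower). CNGC3, next in the row, read 547 and 550 in C3H17_OX, against 1278 in atc3h17-1 (2.33-fold lower, WT 625). The 3 loci are neighbours on chromosome 2. CNGC11 and CNGC12 are close relatives, so cross-hybridisation between their probes cannot be told apart from their own signal, and the C3H17_OX arrays differed for CNGC11, which limma did not call.

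A second run of neighbours, the loci AT4G15660 to AT4G15700 on chromosome 4, was lower at all 5 loci, by 3.02-fold, 2.94-fold, 2.48-fold, 2.11-fold and 2.17-fold in that order. AT4G15680 read 129 and 130 in C3H17_OX, against 321 in atc3h17-1. The 3 measured loci before the run were not called, nor were AT4G15720 and AT4G15730 after it, and the next, AT4G15740, was 3.54-fold higher. Across all calls, 26 of 334 higher genes (7.78%) and 14 of 97 lower genes (14.4%) had a measured neighbour called in the same direction. Of all measured genes 1.71% and 0.498% were called in those directions. The latter shares count single genes, while a neighbour on either side counts for the former, so they are not like for like. The genes with a called neighbour included MRD1 with HEI10, LTP4 with LTP3, and GSTU4 with GSTU3. Near-identical neighbours may share probe signal, which was not tested.

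QQS, an orphan gene that affects starch content, read 338 and 349 in C3H17_OX, against 1967 in atc3h17-1 (5.73-fold lower), but WT read 253, so atc3h17-1 stood apart. AT4G14270 read 1246 and 1252 in C3H17_OX, against 6774 in atc3h17-1 (5.42-fold lower over 2 probes), with WT at 7178. In AT4G14270 it was C3H17_OX that stood apart from atc3h17-1 and WT. HEC1, a bHLH gene of gynoecium development, read 14.2 and 12.8 in C3H17_OX, against 92.5 in atc3h17-1 (6.86-fold lower). NATA1, an acetyltransferase gene of polyamine metabolism, read 22.1 and 21.7 in C3H17_OX, against 91.5 in atc3h17-1 (4.18-fold lower). HEC1 and NATA1 were both dim in C3H17_OX.

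AT3G56210 was 4.66-fold lower as the mean of 3 probes that disagreed: 2 probes were 13.5-fold and 8.56-fold lower, while the other was 1.14-fold higher. AT1G26330, AT1G06540, AT2G18540 and AT4G34880 were 4.40-fold to 7.04-fold lower but read under 25 in C3H17_OX. AT5G10770 and AT4G35720 were 4.85-fold and 4.56-fold lower. None of these loci carries a gene name in the reference table. By several probes, ORP4C, an oxysterol-binding related protein gene, was 2.51-fold lower at 408 and 417.5 in C3H17_OX, against 1035 in atc3h17-1, and AT3G21460 was 3.16-fold lower. THA1, threonine aldolase, was 2.13-fold lower at 256 and 254 in C3H17_OX, against 543 in atc3h17-1, and WT read 132.

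Type-A response regulators, cytokinin-induced proteins that damp cytokinin signalling, gave 3 lower and no higher genes among 8 measured, where 0.498% of all genes were lower. The median log2 difference was -0.62, in a family picked after values were seen. RR16 read 117 and 128 in C3H17_OX, against 397 in atc3h17-1 (3.25-fold lower, WT 438). ARR7 read 209 and 202 in C3H17_OX, against 519 in atc3h17-1 (2.53-fold lower, WT 716). RR17 read 21.6 and 21.2 in C3H17_OX, against 61.5 in atc3h17-1 (2.87-fold lower, WT 32.5). WT lay nearer to atc3h17-1 for RR16 and ARR7 and nearer to C3H17_OX for RR17. Of the members above background in 1 genotype only, ARR15 was at least 2.75-fold lower in C3H17_OX and ARR3 at least 2.001-fold higher.

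Aliphatic glucosinolate genes, which make the methionine-derived defence compounds of the cabbage family, had no called member. All 19 measured genes lay below 0, and the median log2 difference was -0.55, where 51.6% of all genes lay below 0. IPMI1, of the chain-elongation steps, read 2176 and 2185 in C3H17_OX, against 4160 in atc3h17-1 (1.91-fold). IMD1, of the same steps, read 15190 and 15530 in C3H17_OX, against 27820 in atc3h17-1 (1.81-fold). CYP79F1, the first enzyme of the core pathway, read 1087 and 1062 in C3H17_OX, against 1934 in atc3h17-1 (1.8-fold). WT exceeded atc3h17-1 for all 19.

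The same direction held at smaller size for cell cycle genes, of which 24 of 26 lay below 0 (median -0.33), and ribosomal and nucleolar genes, of which 17 of 20 did (median -0.28). CDKB1;1, a mitotic kinase gene, read 220 and 229 in C3H17_OX, against 324 in atc3h17-1. Neither list held a called gene. Median differences were 0.07 for 33 photosynthesis genes and -0.02 for 13 reference genes, and neither list held a call.

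**Figure D4:**
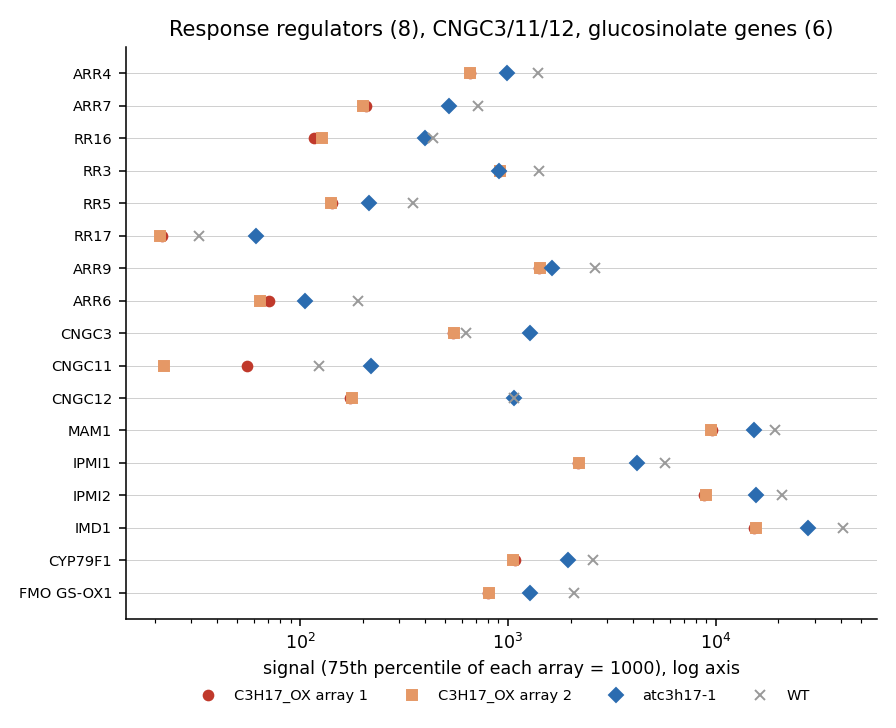
Level of 8 type-A response regulators, CNGC3, CNGC11 and CNGC12, and 6 aliphatic glucosinolate genes on each array, on a log axis in units with each array's 75th percentile at 1000. The C3H17_OX marks lie left of atc3h17-1 for all of these but RR3, and WT lies left of atc3h17-1 for RR17, CNGC3 and CNGC11.

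Genes off in 1 genotype are missing from the counts above. Well above background on both C3H17_OX arrays but not in atc3h17-1 were 330 genes, of which 83 were at least 2-fold higher by their bound, and the other way round 222 and 109. The seed storage protein genes CRA1 and CRU3 had the largest bounds on the C3H17_OX side. CRA1, a 12S globulin gene, read 283 and 277 in C3H17_OX, against 3.83 in atc3h17-1, and was at least 24.1-fold higher by its 3 probes. CRU3, another 12S globulin gene, read 144 and 128 in C3H17_OX, against 4.04 in atc3h17-1, and was at least 11.7-fold higher. Neither was well above background in WT.

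PER1, for a peroxiredoxin of seeds, was higher by at least 5.41-fold, and the oleosin genes OLEO1 and OLEO2, for coat proteins of seed oil bodies, at least 2.05-fold and 2.55-fold higher. GEA6, also called EM6, a late embryogenesis protein gene, was measured in all and read 372 and 362 in C3H17_OX, against 144 in atc3h17-1 (2.54-fold higher, WT 14.0). Of 20 listed seed storage genes only 5 were above background on all 3 arrays, and GEA6 was the single call among them. Of all genes 1.71% were higher. CRU2 and SESA1 to SESA5, storage protein genes of the same list, were not well above background on all 3 arrays. No bound is given for them. Members of the list also went the other way: M10 was well above background in atc3h17-1 but not in C3H17_OX, at least 2.28-fold lower in C3H17_OX, and M17 read 58.3 and 59.0 in C3H17_OX, against 73.7 in atc3h17-1.

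Of 10 measured seed regulators 5 lay above 0 and 5 below, with a median of -0.01 and 1 call, where 2.21% of all genes were called. LEC1, a transcription factor of embryo identity, read 11.7 and 11.3 in C3H17_OX, against 28.5 in atc3h17-1 (2.48-fold lower), and ABI3 was at least 1.76-fold lower in C3H17_OX. HSI2, a repressor of the seed programme, read 899 and 900 in C3H17_OX, against 503 in atc3h17-1, without a call. The 6 seed markers summed to 847 and 818 in C3H17_OX and 190 in atc3h17-1 (WT 74.8), with 6 of 6 well above background in C3H17_OX and 2 of 6 in atc3h17-1. Most of these markers are described above, some because they were above background in C3H17_OX only. Their sum and counts are therefore not a separate reading. The part of these markers in the other results was not tested.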

How the data were processed

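Each array is 1 file of Agilent Feature Extraction 11.0.1.1 output. Per the file headers, the deposited processed signal is a linear intensity, background-subtracted and detrended within an array, with no scaling between arrays. The authors' series value table holds the same linear intensity and served as an alternative. The same software set the 0 or 1 marks of background, saturated and outlier spots, per the file headers.

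Control spots and 30 probes flagged as outliers were left out, and repeated spots of a probe were averaged. Values are log2 of the deposited processed signal, from which the 75th percentile of the array was subtracted, and levels are printed with that percentile at 1000. Probes well above background on all 3 compared arrays were kept (30972 of 43573). Of the 43603 probes, 34348 (78.8%) were matched to 1 locus by transcript accession through the TAIR10.1 table, which served for names and gene order only; no coordinates are given. That AT2G02160 is C3H17 is general knowledge and not in the table. A gene is the mean of its kept probes.

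A gene was called when it differed at least 2-fold, in 1 direction, on each C3H17_OX array. The named genes are C3H17, the 12 highest and 12 lowest calls by the smaller array difference, up to 8 genes per direction with 2 or more probes all past 2-fold, up to 6 members per list by absolute difference, and up to 6 genes per direction measured in 1 genotype only. From these the text names those it describes. Where a gene was above background in 1 genotype only, a bound is given, which divides the brighter genotype's mean by a floor for the dimmer one. The floor on an array is its lowest signal that counts as well above background, or the probe's own signal if that is higher. The members and the 34 lists were chosen with earlier results of these data known, and 5 further families after values were seen. Of 646 listed symbols 642 were used. Alternatives were normexp background correction (offset 50), other scaling, other filters, the brightest probe, the series table, limma 3.58.1 in R 4.3.3, each C3H17_OX array left out, and a 4-fold threshold. The calls were tested on simulated data with noise taken from the C3H17_OX pair. Such data cannot show how far genes vary between samples of a genotype. Tables and plots were made in Python 3.11.15 (matplotlib 3.10.9, numpy 2.4.6, pandas 2.3.3). 1 member of the Casparian strip list is not reported here by name.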

Additional observations from a re-analysis of the deposited data

How the results depend on the processing

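The 431 calls (334 higher, 97 lower in C3H17_OX) changed in number with the threshold and with how dim probes were treated. They fell to 215 (164 and 51) with normexp background correction, 213 of them shared, and numbered 882 (548 and 334) with probes above background in at least 1 genotype and 1163 (687 and 476) with no filter. A 4-fold threshold left 35 (22 and 13), and requiring every probe of genes with several probes to pass, an alternative chosen after seeing the data, left 38 (31 and 7). Root hair genes called higher fell to 6 of 19 with normexp. Quantile scaling gave 278 higher and 115 lower, or 70.7% higher in place of 77.5%. The filter changes moved that share to 62.1% and 59.1%. Leaving out 1 C3H17_OX array gave 506 calls each time, 386 to 390 higher and 116 to 120 lower. limma, which takes both C3H17_OX arrays as separate samples with 1 residual degree of freedom, called 357 higher and 105 lower genes at an adjusted p under 0.05 and 2-fold, 427 of them shared. Without the root hair and Casparian strip genes, chosen after seeing the data, 319 and 96 remained. Of 93 named or called list genes 25 lost the call with normexp, and none of the 93 changed direction under the alternatives run. Under limma THI2.1 and CNGC11 lost it. No paired analysis was possible because the genotypes share only replicate number 1, given in accession order. Signal over background limits the dim genes.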

Other observations

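Of 3922 kept probes without a locus name, 36 read higher and 38 lower in C3H17_OX by the same 2-fold rule. Among all 30972 kept probes these numbers were 460 and 172. The share of genes called ranged from 1.86% on chromosome 3 to 2.85% on chromosome 2.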
